A study of Homo sapiens with 26 samples.

Results

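The comparison described here is that of monomethylated lysine 4 of histone H3 (H3K4me1) in wild-type (WT) HCT116 cells after 10 h of Nutlin-3a with the same mark at 0 h. Its members are the 4 WT H3K4me1 peak lists of those times, 2 replicates each, chosen by the sample labels from the 26 libraries of the series, of which 16 have a peak list. Merging the peaks of all 6 WT H3K4me1 lists (0, 1 and 10 h), wherever they overlapped or touched, gave 110269 regions, and each was followed through the 4 lists.

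HCT116 is an established colorectal carcinoma line that carries wild-type p53. The 0 h cells received only the vehicle DMSO, and the 10 h cells received Nutlin-3a, a small molecule that blocks the binding of HDM2 (MDM2) to p53. To ask whether acetylation followed, 10 H3K27ac lists (acetylated lysine 27 of histone H3) of the same series were used, namely 6 WT lists and 4 of an HCT116 derivative in which the cohesin subunit RAD21 carries an auxin-inducible degron. The 2 lists of that line without Nutlin-3a (0 h) are set beside the WT lists below. Their labels give DMSO only, while the study describes the line's libraries as made after RAD21 was degraded with 5-Ph-IAA, so they differ from WT 0 h in genotype and, by that description, in cohesin. All groups come from this cell line or that derivative, so the replicates are separate libraries of the same cells and not of different donors.

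H3K4me1 is laid down by the methyltransferases KMT2C and KMT2D and marks enhancers, both those that are active and those that are primed, and the flanks of active promoters. Active enhancers also carry H3K27ac. p53 binds DNA as a tetramer at a response element of 2 decamers, switches on arrest, repair and apoptosis genes, and is held in check by its own target MDM2, an E3 ubiquitin ligase.

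Response elements found in the sequence of gained and strengthened H3K4me1 domains are shown first. The gained and rank calls did not use the sequence, but the domains printed here were picked because they hold an element. Sequences are from the plus strand of GRCh37, 5′ to 3′, with 30 bases on either side. Capitals mark the 2 decamers that match the p53 consensus at every position. The first 4 come from gained domains and are named by the nearest protein-coding start: an intron of CFTR, a chloride channel; a promoter within SHFL, a restrictor of viral frameshifting; an exon of another transcript nearest MSI2, an RNA-binding protein; and an intergenic site nearest PCDH10, a protocadherin whose start is 1338034 bp away.
CFTR, chr7:117270735-117270814: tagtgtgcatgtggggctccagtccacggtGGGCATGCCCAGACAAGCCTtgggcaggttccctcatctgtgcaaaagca
SHFL, chr19:10200040-10200124: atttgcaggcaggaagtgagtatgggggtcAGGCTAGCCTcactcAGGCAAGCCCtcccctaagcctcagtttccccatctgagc
PCDH10, chr4:132731845-132731924: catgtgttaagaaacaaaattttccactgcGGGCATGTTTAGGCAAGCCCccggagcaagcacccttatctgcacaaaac
MSI2, chr17:55273649-55273728: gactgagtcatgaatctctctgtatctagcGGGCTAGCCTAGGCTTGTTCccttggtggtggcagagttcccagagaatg

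The next 4 lie in regions present at both times that ranked higher at 10 h, within NDUFAF5 (assembly of respiratory complex I), MAP2K6 (a kinase that activates p38) and LAMA3 (a laminin chain), and 211956 bp from TMEM229A.
NDUFAF5, chr20:13781522-13781601: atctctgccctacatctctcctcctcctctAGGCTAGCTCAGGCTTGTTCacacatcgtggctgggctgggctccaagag
MAP2K6, chr17:67426717-67426797: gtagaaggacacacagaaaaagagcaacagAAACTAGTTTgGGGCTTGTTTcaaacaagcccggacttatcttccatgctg
TMEM229A, chr7:123886613-123886693: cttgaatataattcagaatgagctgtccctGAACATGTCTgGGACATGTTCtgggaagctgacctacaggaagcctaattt
LAMA3, chr18:21463628-21463707: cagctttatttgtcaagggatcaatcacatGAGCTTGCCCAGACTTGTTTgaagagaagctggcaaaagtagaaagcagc

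No lost domain held such an element. The lost domains near PTGDR, a prostaglandin receptor, and NDST3, a heparan sulfate sulfotransferase, are shown as examples, with capitals on TGANTCA, the pattern searched for AP-1. They were picked because they hold a match, and the higher-ranked lost domains at U2SURP and TARBP1 had none. TGANTCA was in 46.2% of lost domains and 45.1% of all regions of the same lengths.
PTGDR, chr14:52746325-52746391: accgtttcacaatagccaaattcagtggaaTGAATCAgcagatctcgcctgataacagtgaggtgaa
NDST3, chr4:119102094-119102160: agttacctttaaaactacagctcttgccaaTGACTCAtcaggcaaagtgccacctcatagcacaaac

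The 4 lists were of similar size. They held 91730 and 86207 peaks at 0 h and 84492 and 89231 at 10 h (replicates 1 and 2), over 195.9 and 177.6 Mb at 0 h and 167.6 and 187.6 Mb at 10 h. The covered length was 187 ± 12.9 Mb at 0 h and 178 ± 14.1 Mb at 10 h (SD, n = 2), a difference smaller than the spread between replicates. The lists hold no read counts, so no counting error of single peaks is given, and 2 lists against 2 cannot give a two-sided exact permutation p below 0.333. As a check of the cell type, the promoters of all 8 epithelial markers, including EPCAM and KRT8, carried H3K27ac in both 0 h lists, against 1 of 11 markers of other cell types (SYP). Peak names in both WT 0 h H3K27ac lists and in WT 1 h replicate 1 lack the word input. Those of WT 1 h replicate 2 and both WT 10 h lists carry it. Between WT 0 h and 10 h this difference in H3K27ac names and the treatment cannot be told apart. In the WT 1 h lists (replicates 1 and 2) H3K27ac covered 1653 and 8691 bp of the CDKN1A promoter region and 3294 and 8764 bp of that of BAX. What set these replicates apart was not tested. All 6 H3K4me1 lists carry the word.

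A domain was gained when both 10 h lists and neither 0 h list called it. This held for 2902 regions (2.63% of all), and 2519 regions (2.28%) were lost by the opposite rule. When both lists that call a domain had to give it a −log10 q-value of 5 or more, 190 gained and 2 lost domains were left. Most of the gained and lost domains were thus weak and short. Gained domains had a median width of 732.5 bp and lost domains of 710 bp, against 1262 bp over all regions. Their strength is given as the percentile of the −log10 p-value within a list. Gained domains had median percentiles of 18.8 and 25.5 in the 10 h lists, and lost domains of 15.7 and 10.8 in the 0 h lists. The 1 h lists, which share the 0 h reference, called 679 and 533 of the 2902 gained and 1543 and 1300 of the 2519 lost domains. Of all 110269 regions they called 87918 and 81305, a larger share than of either kind.

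Neither kind of domain was mainly a promoter. Promoters (1000 bp upstream to 200 bp downstream of a start site) made up 5.20% of gained and 5.95% of lost domains (95% Wilson intervals 4.45 to 6.07% and 5.10 to 6.95%), against 19.2% of all regions. Introns made up 56.4% of gained and 52.8% of lost domains against 44% of all regions, and intergenic sites 27.2% and 30.5% against 25.4%. Gained domains often lay near domains already present, with a median of 7.84 kb to the nearest region called in both 0 h lists, and for lost domains the median to the nearest region called in both 10 h lists was 7.32 kb.

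Counted in base pairs, 4.85 Mb were covered in both 10 h lists and neither 0 h list, and 6.28 Mb in the opposite case. Gained domains held 1.43 Mb (29.4%) of the first, whereas 3.00 Mb (61.7%) lay in regions called in all 4 lists. Of the bases covered only at 0 h, lost domains held 13.4% and regions called in all 4 lists 77.3%. Single segments were short, with medians of 85 bp and 75 bp.

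The gained domain of highest rank lay in an intron of CNNM2, a gene of magnesium transport, with NT5C2, a nucleotidase, as nearest protein-coding start (chr10:104801670-104802631, GRCh37). It was in neither 0 h list and at percentiles 83.3 and 82.6 in the 10 h lists, and no WT H3K27ac list called a peak there. The next lay in a gene desert (chr13:65837750-65839075), at percentiles 80.7 and 73.2, with H3K27ac in both 10 h lists and neither 0 h list. In ABCC1, a drug efflux pump, an exonic domain (chr16:16129111-16130955) stood at percentiles 73.6 and 76.4. It carried H3K27ac in both WT 10 h lists and neither WT 0 h list, but both RAD21-line 0 h lists called a peak there too. The CFTR intron domain with the element printed above (chr7:117270120-117271131) reached percentiles 67.8 and 80.4, was called in 1 h replicate 1 at percentile 34.2, and carried H3K27ac in both WT 10 h lists and in neither 0 h list of either line. SLC38A9, a lysosomal amino acid sensor, held an intronic domain at percentiles 75.4 and 69.5 without H3K27ac. XXYLT1, a xylosyltransferase, and HDAC11, a histone deacetylase, had domains at percentiles 72.2 and 69.4 and at 61.2 and 79.6, each with H3K27ac in 10 h replicate 2 only. XRCC5, a subunit of the Ku end-joining complex, had an intronic domain at percentiles 67.5 and 71.5 with H3K27ac in both 10 h lists. Of the 5 leading gained domains with new H3K27ac (the chromosome 13 desert, ABCC1, CFTR, XRCC5 and PSME3IP1), the desert, CFTR and PSME3IP1 domains were also free of H3K27ac in both RAD21-line 0 h lists. The PSME3IP1 domain (chr16:57208545-57209467) stood at percentiles 66.4 and 70.8.

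The strongest lost domains ranked lower in their lists than the strongest gained ones did. The first, in an intron of U2SURP, a spliceosome-associated gene (chr3:142705626-142706585), stood at percentiles 56.5 and 52.2 at 0 h and in neither 10 h list. TARBP1, an RNA methyltransferase, followed at 50.4 and 41.2. The domain nearest DERL1, within ZHX2, stood at 43.9 and 46.2, and PTGDR at 49.0 and 39.0. NDST3 stood at 49.0 and 36.7, UBAC2 at 42.8 and 42.9, the RFX1 intron nearest PODNL1 at 55.8 and 29.5, and the UBR2 exon nearest PRPH2 at 31.5 and 53.5. Of these 8, 6 had no H3K27ac in any WT list, the PODNL1 and PRPH2 domains being the others.

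**Figure D1:**
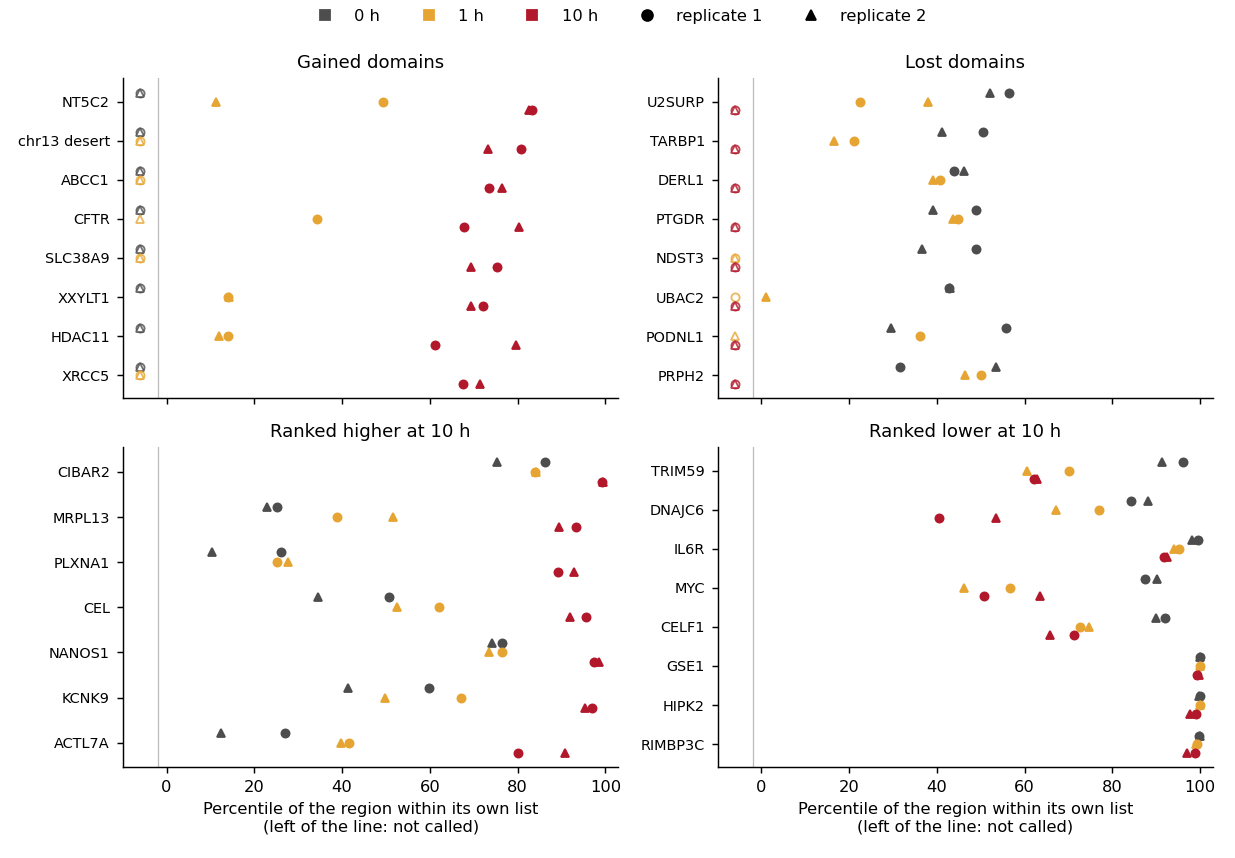
Percentile of each named region by −log10 p-value within its own H3K4me1 list (x axis, 0 to 100), for the 8 leading gained, lost and lower-ranked and 7 leading higher-ranked regions on chromosomes 1 to 22 and X, labelled by nearest protein-coding start; colours are hours of Nutlin-3a, circles and triangles are replicates 1 and 2, and open symbols left of the line are lists that did not call the region. Gained domains sit between 61.2 and 83.3 at 10 h, while lost domains sit between 29.5 and 56.5 at 0 h.

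Response elements were then counted in all regions. A p53 response element (2 consensus decamers with a spacer of 0 to 13 bases, searched so that both strands are covered) occurred in 621 of the 110269 regions, or 0.563%. It occurred in 92 of 2902 gained domains, 3.17% (95% Wilson interval 2.59 to 3.87%), where all regions of the same lengths gave 0.375%. It occurred in 0 of 2519 lost domains, which allows a share of up to 0.152% by the upper Wilson bound, with 0.372% for all regions of those lengths. Of regions with the element, 92 (14.8%) were gained and 0 lost, while of the other 109648 regions 2.56% were gained and 2.3% lost. The elements of gained domains lay near the middle, at a median of 87.5 bp from the domain centre, and 77.7% were in the central part that spans 50% of the width, against 61.4% over all 643 elements. With no spacer allowed, 69 gained and 0 lost domains held an element, and 0.198% of all regions did. Among the 190 strong gained domains 10 (5.26%) held one.

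Other motifs were counted in the same way. TGANTCA was found in fewer gained domains than in regions of their lengths, 34.1% (Wilson 32.4 to 35.9%) against 45.6%, and in 46.2% of lost domains (45.1%). GGAATG, the core of TEAD sites, was found in 38.2% of gained (40.8%) and 40.2% of lost domains (40.0%). TTGCNNAA was found in 31.6% (33.6%) and 33.1% (32.9%), TTCNNNGAA in 20.3% (23.3%) and 23.7% (22.7%), and CACGTG in 11.4% (10.4%) and 10.6% (10.1%). A match is a description of the letters and not evidence of binding.

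**Figure D2:**
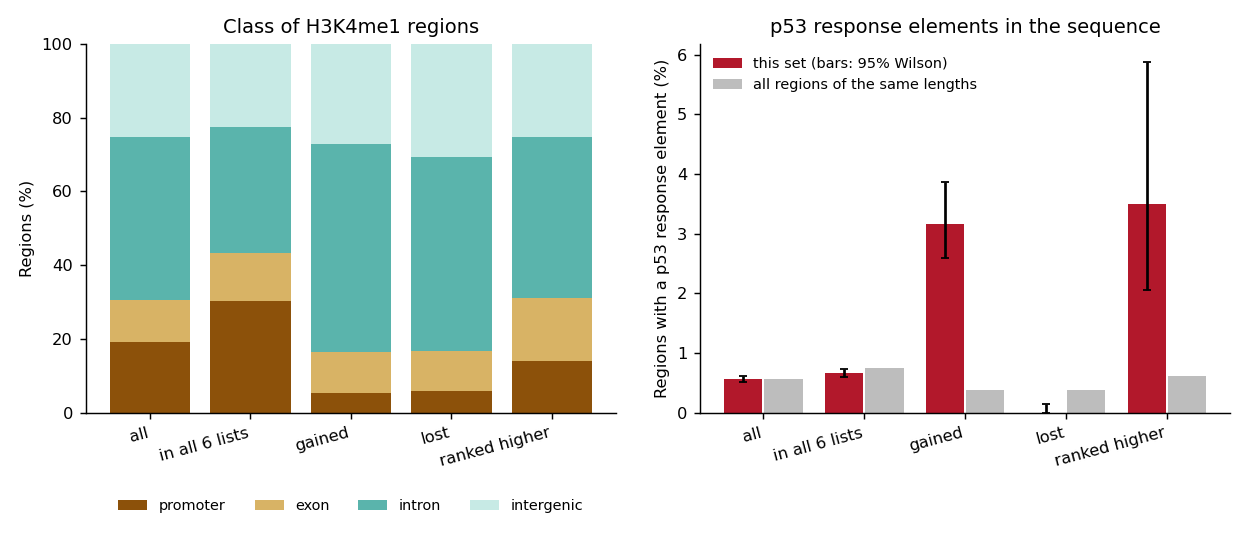
Left, share of H3K4me1 regions (%) in each class for all 110269 regions, the 60476 called in all 6 lists, the gained, the lost and the regions ranked higher at 10 h. Right, share of regions (%) with a p53 response element in each set (red, bars are 95% Wilson intervals) beside all regions of the same lengths (grey); gained domains reach 3.17% against 0.375%, lost domains 0%.

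Regions present at all times were compared through their rank. The 60476 regions called in all 6 lists were ranked in every list by −log10 p-value, and the ranks were turned into normal scores, so that a change of 1 is 1 SD of those scores. By limma over the 6 lists, 372 regions (0.615%) ranked higher and 14 (0.0231%) lower after 10 h, with p-values adjusted by Benjamini-Hochberg and a threshold of 0.05. The median change over all tested regions was −0.02. The higher-ranked regions, which were chosen for their rise, had a median change of 1.48. In all 372 both 10 h percentiles lay above both 0 h percentiles, as in 8248 of the 60476 tested regions. Median percentiles of the 372 in replicates 1 and 2 were 43.9 and 39.5 before treatment, 51.7 and 47.9 after 1 h, and 82.2 and 83.9 after 10 h. These counts rest on every one of the 4 lists, with 169 and 132 higher without 0 h replicate 1 or 2, and 7 and 9 without 10 h replicate 1 or 2. Ranked by fold enrichment, 4 regions were called higher and 0 lower. All 372 kept their sign and 371 had an unadjusted limma p-value under 0.05, but fold and p-value come from the same peaks. Of all 60476 tested regions, 54550 kept their sign and 4555 had such a p-value by fold.

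The regions ranked higher were less often promoters than those tested, at 14.0% (Wilson 10.8 to 17.9%) against 30.3%, and more often introns, at 43.5% against 34.2%. A p53 response element was present in 13 of the 372 (3.49%, Wilson 2.05 to 5.89%), against 0.615% of all regions of the same lengths, and in 0 of the 14 lower-ranked regions. With no spacer allowed the count was 6. Of the 401 tested regions with an element, 271 (67.6%) had a positive change, with a median of 0.10, against 47.1% of the 60075 without.

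Of the leading regions ranked higher, an intergenic region nearest CIBAR2 went from percentiles 86.3 and 75.2 at 0 h to 99.2 and 99.4 at 10 h, a change of 1.69 ± 0.17 (SE, limma adjusted p-value 8.29e-04). PLXNA1, a semaphorin receptor, had an exonic region at 26.0 and 10.3 at 0 h and 89.3 and 92.9 at 10 h, a change of 2.88 ± 0.29 (limma adjusted p-value 8.29e-04). An intronic region of MRPL13, a mitochondrial ribosomal protein, went from 25.1 and 22.9 to 93.3 and 89.4. At the promoter of CEL, a lipase, percentiles were 50.7 and 34.5, then 95.7 and 92.0. The regions nearest NANOS1 and KCNK9 ended between 95.3 and 98.6, and that nearest ACTL7A at 80 and 90.7. In all 7 of these regions both WT 10 h H3K27ac lists called a peak, and in the PLXNA1, CEL and ACTL7A regions neither WT 0 h list did. Both RAD21-line 0 h lists had H3K27ac at PLXNA1 and CEL, and both WT 1 h lists had it at CEL, so of these regions ACTL7A alone had it in the WT 10 h lists and in none of the WT 0 h, WT 1 h and RAD21-line 0 h lists.

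Among the higher-ranked regions with an element, NDUFAF5 went from percentiles 25 and 12.1 to 84.3 and 81.3 and MAP2K6 from 20.8 and 32.7 to 77.8 and 85.9. DSE, an epimerase of dermatan sulfate, rose from 4.45 and 6.52 to 56.0 and 56.8 and RECK, an inhibitor of matrix metalloproteinases, from 53.2 and 57.0 to 90.4 and 84.4. The TMEM229A region, with an element printed above, went from 52.9 and 62.7 to 87.1 and 94.7, and its H3K27ac rank changed by 2.01 ± 0.29 (limma adjusted p-value 9.65e-04). LAMA3 went from 65.5 and 59.4 to 83.1 and 90.8, with no H3K27ac in the WT lists at any time. Further regions of this kind were those nearest FAM72D, ZNF81, CCDC196, ARFGAP3, KLHL38, PCNX2 and MSGN1.

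The 14 regions ranked lower were strong domains, with median percentiles of 95.9 and 93.8 at 0 h and 73.6 and 80.2 at 10 h, and 7 were promoters. At the promoter of TRIM59, a ubiquitin ligase gene, percentiles were 96.0 and 91.2 before treatment, 70.2 and 60.5 at 1 h, and 62.2 and 62.7 at 10 h, a change of −1.35 ± 0.20 (limma adjusted p-value 0.00428). An intronic region of DNAJC6, the auxilin of clathrin uncoating, fell from 84.2 and 88.1 to 40.5 and 53.5. IL6R, the interleukin receptor, fell from 99.4 and 98.1 to 91.8 and 92.5, and CELF1, a splicing regulator, from 92.0 and 90.0 to 71.2 and 65.7. A region at the promoter of another transcript, whose nearest protein-coding start is MYC at 689893 bp, fell from 87.4 and 90.2 to 50.7 and 63.5. Domains of HIPK2, a kinase that phosphorylates p53, of GSE1 and of the UBE2L3 promoter nearest RIMBP3C fell within the top of the list, all staying at percentile 97.0 or above. NR2F6, LYZL4, PIAS1, EXOC3 and TMEM92 were the nearest genes of further regions. Of the 11 H3K27ac regions that could be tested at these domains, 0 ranked lower by limma. At HIPK2 and NR2F6 the H3K27ac rank rose, by 0.53 ± 0.17 and 0.56 ± 0.15 (limma adjusted p-values 0.0452 and 0.0208). With a term for the form of the peak names 1 H3K27ac region at these 14 was called, not 2.

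**Figure D3:**
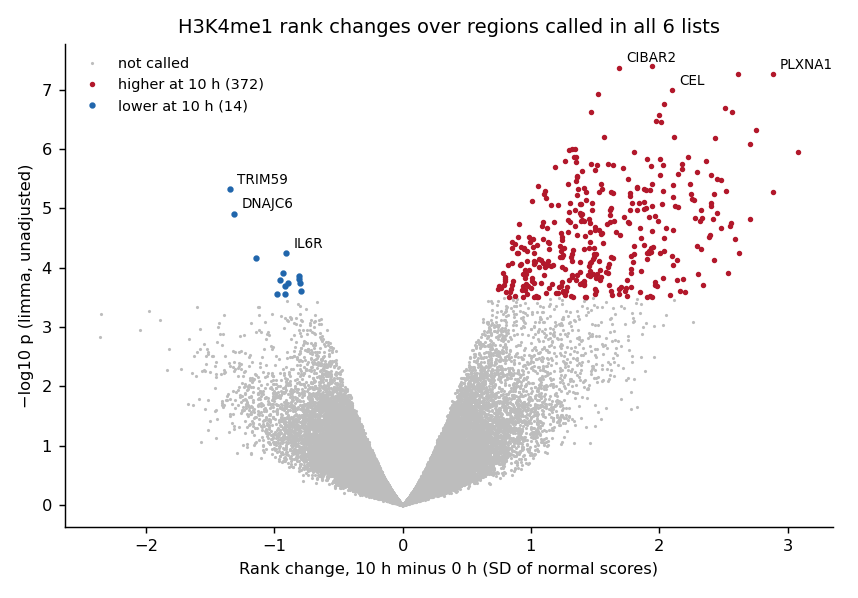
Rank change of H3K4me1, 10 h minus 0 h, in SD of normal scores (x axis) against −log10 of the unadjusted limma p-value (y axis) for the 60476 regions called in all 6 lists. Red points are the 372 regions ranked higher and blue points the 14 ranked lower; labels give the nearest protein-coding start of some named regions.

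Widths gave no calls, from a fit that recovered 19% of planted changes of size 1 in simulated data. On log2 of the covered length, centred on each list, 0 regions were wider and 0 narrower by limma, with 4045 at an unadjusted p-value under 0.05 and a smallest adjusted p-value of 0.0987. The 372 regions ranked higher had a median width change of 0.64 on the log2 scale, positive in 359, against 0.01 over all tested regions. In the 14 regions ranked lower the median was 0.17, positive in 11.

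H3K27ac was then read at the same places. At gained domains it was rare before treatment. The WT 0 h lists called a peak in 2.10% and 2.07% of the 2902 gained domains, the WT 1 h lists in 2.58% and 3.79%, and the WT 10 h lists in 20.2% and 19.7%. Over all regions these shares were 23.6% and 23.7% before treatment and 24.9% and 24.8% at 10 h. Both 10 h lists called H3K27ac in 460 gained domains (15.9%, Wilson 14.6 to 17.2%), and both 10 h lists and neither 0 h list in 392 (13.5%, Wilson 12.3 to 14.8%), against 2.82% of all regions. The RAD21-line 0 h lists have peak names that match those of the WT 10 h lists, but their cells differ as given above. They called 4.51% and 4.86% of gained domains, against 23.1% and 23.7% of all regions. Taken as the reference they left 305 gained domains (10.5%) with new H3K27ac, against 2.32% of all regions. In all, 2186 gained domains (75.3%) had no H3K27ac in any of the 4 WT lists of 0 h and 10 h. Among all regions, which are longer, the share was 69.1%.

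The share was higher in stronger domains, at 0 h as well as at 10 h. When gained domains were split into 4 equal groups by mean percentile at 10 h, H3K27ac was in both 10 h lists for 9.23% of the weakest group, then 13.5%, 17.4% and, in the strongest, 23.3%. In both 0 h lists it was 0.413%, 0.552%, 1.10% and 1.38% of the same groups. Of the 190 strong gained domains, 4.74% and 5.79% carried it in the 0 h lists and 42.1% and 41.6% in the 10 h lists. Of the 92 gained domains with a p53 response element, 32 (34.8%) carried H3K27ac in both 10 h lists and 1 in both 0 h lists, whereas 428 of the other 2810 (15.2%) carried it in both 10 h lists.

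Lost domains had little H3K27ac to lose. The 0 h lists called 1.75% and 1.47% of the 2519 domains and the 10 h lists 2.58% and 1.79%. In 20 domains (0.794%) both 0 h lists had a peak, and in 8 (0.318%, Wilson 0.161 to 0.625%) both 0 h lists and neither 10 h list did, against 1.25% of all regions.

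At the 372 regions ranked higher, H3K27ac was present in 26.3% and 24.2% in the WT 0 h lists, in 31.5% and 30.9% at 1 h and in 67.5% and 68.0% at 10 h. The RAD21-line 0 h lists gave 28.8% and 31.5%, against 39.8% and 40.5% of all tested regions. In the WT lists the share over all tested regions was 41.8% and 42.2% at 0 h and 41.4% and 41.3% at 10 h. In 113 regions (30.4%) H3K27ac was in both 10 h lists and neither 0 h list, and in 0 regions the opposite, against 2.82% and 2.17% of all tested regions. When the RAD21-line 0 h lists also had to lack H3K27ac, 77 regions (20.7%) were left, against 0.823% of all tested regions. Where H3K27ac was called in all 10 lists, 40 H3K27ac regions overlapped the higher-ranked H3K4me1 regions. Their median H3K27ac rank change was 0.43, with 17 ranked higher (42.5%) and 1 lower, while over all 18757 tested H3K27ac regions the median was −0.04, with 9.7% higher and 8.56% lower. With a term for the form of the peak names 6 of the 40 were higher and 1 lower.

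**Figure D4:**
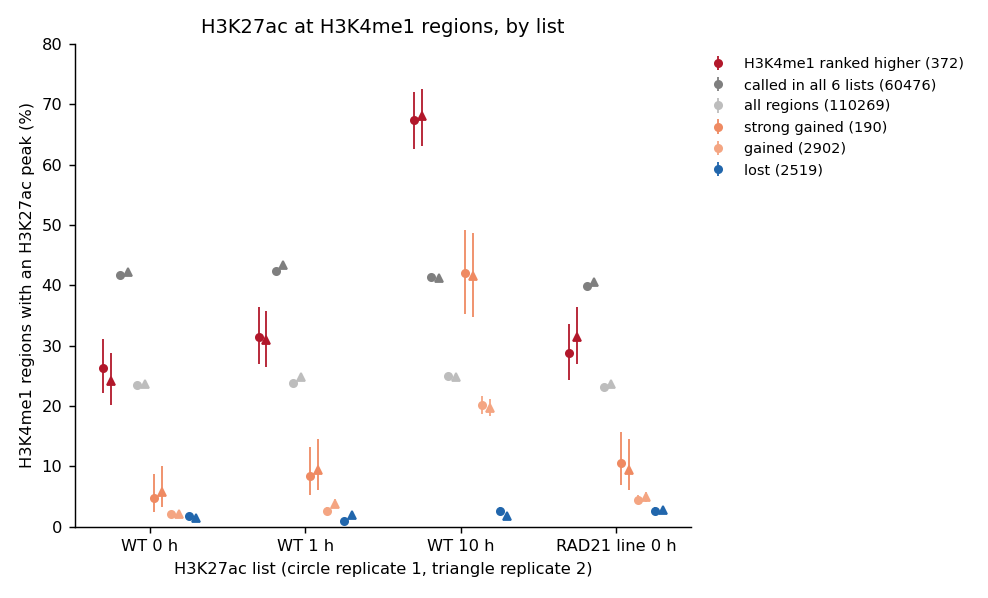
Share of H3K4me1 regions (%) overlapped by an H3K27ac peak in each of 8 H3K27ac lists (x axis, circles and triangles are replicates 1 and 2, bars are 95% Wilson intervals). Regions ranked higher move from 26.3% and 24.2% at 0 h to 67.5% and 68.0% at 10 h and gained domains from about 2% to about 20%, while lost domains stay below 3%.

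The p53 target genes were read next, whatever their values. Of the start-site regions of 15 such genes, RRM2B, a p53-induced ribonucleotide reductase subunit, was the only gene with a called change of H3K4me1. Its percentiles were 83.3 and 75.9 before treatment and 97.2 and 94.7 at 10 h, a change of 1.02 ± 0.19 (limma adjusted p-value 0.0162), while its H3K27ac rank change of 0.15 ± 0.12 was not called (limma adjusted p-value 0.365). PLK2, a kinase, followed at 67.0 and 67.1, then 85.7 and 88.0, with an adjusted p-value of 0.0677 (limma), and its region holds a response element. So do the regions of GDF15 and ZMAT3, whose changes of −0.04 and 0.13 were not called, while that of RRM2B does not. H3K27ac at PLK2 was not called either (limma adjusted p-value 0.558). The promoter domain of CDKN1A, the p21 inhibitor of cyclin-dependent kinases, stood at 98.2 and 99.8 at 0 h and at 92.3 and 95.8 at 10 h, a change of −0.89 ± 0.21 that missed the threshold (limma adjusted p-value 0.092). BAX, a mitochondrial pore former, stood at 99.2 and 98.4, then 95 and 96.1 (change −0.57 ± 0.15, limma adjusted p-value 0.147). H3K27ac ranked higher in the BAX region, by 0.64 ± 0.14 (limma adjusted p-value 0.00951), and in that of GDF15, a stress cytokine, by 1.29 ± 0.13 (limma adjusted p-value 1.24e-04). The latter H3K27ac region, chr19:18471977-18478399, ends before the annotated GDF15 gene, which begins at 18485541. It lies in an H3K4me1 region of 57933 bp centred in PGPEP1. H3K27ac also ranked higher at TP53INP1, a p53-induced nuclear protein gene, by 0.67 ± 0.18, and at TGFA, an EGFR ligand, by 0.35 ± 0.11 (limma adjusted p-values 0.0239 and 0.0467). At CDKN1A, MDM2, BBC3, FAS, TNFRSF10B, BTG2, SESN1, ZMAT3 and PPM1D H3K27ac was not called (limma adjusted p-values 0.054 to 0.723). The peak names of the WT 0 h and 10 h lists differ as given above. In the BAX region H3K27ac covered 3448 and 3722 bp in the WT 0 h lists and 9124 and 9044 bp at 10 h. The RAD21-line 0 h lists covered 6873 and 7018 bp there. H3K4me1 at GDF15 stood at percentiles 98.8 and 98.5, then 98.9 and 98.0. For MDM2, BBC3, FAS, TNFRSF10B, BTG2, SESN1, TP53INP1, ZMAT3, PPM1D and TGFA the limma adjusted p-values of H3K4me1 lay between 0.473 and 0.975.

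The length covered over gene bodies moved both ways at p53 targets. This measure, the share of an annotated gene covered by H3K4me1 peaks, was chosen after the values above had been seen. At MDM2 it was 9.86% and 8.83% at 0 h, 14.0% and 13% at 1 h, and 26.0% and 77.3% at 10 h, so both 10 h values were higher but lay far apart. Within and just past the MDM2 gene lay 3 gained domains, at chr12:69211328-69215880, chr12:69230863-69236127 and chr12:69236938-69240094. They were weak, at percentiles of at most 15.5, and their extent differed between the 10 h lists, with 565, 1681 and 373 bp covered in replicate 1 and 4553, 5079 and 3157 bp in replicate 2. H3K27ac peaks of both WT 10 h lists overlapped each of them in part, over 250 to 515 bp in replicate 1 and 331 to 1881 bp in replicate 2. No WT 0 h or RAD21-line 0 h list had a peak there, and WT 1 h replicate 2 had one in the first. At CDKN1A the covered share was 72.8% and 56.4% at 0 h and 100% and 94.0% at 10 h, so the domain lengthened while its percentile was lower. BAX went from 77.9% and 85.8% to 100% in both lists. FDXR, the ferredoxin reductase, went from 76.5% and 65.8% to 90.7% and 89.9%, and TP53I3, a quinone oxidoreductase, from 62.6% and 61.8% to 68.2% and 85.9%. TP53INP1 and XPC, a DNA damage sensor, changed less, from 7.14% and 7.43% to 11% and 16.6% and from 6.37% and 5.92% to 7.59% and 11.1%.

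Other p53 targets went the opposite way. PHLDA3, an AKT repressor, was covered over 100% in both 0 h lists and over 76.4% and 77.2% at 10 h. BTG2, an antiproliferative gene, went from 66.6% and 65.1% to 57.4% and 45.1%, and SESN2, a stress sensor, from 33.7% and 29.8% to 20.5% and 22%. PLK2 went from 46.6% and 35.4% to 33.8% and 33.5%. Both 10 h values were also below both 0 h values at AEN, BBC3, TNFRSF10A, TOB1, GADD45A, TRIAP1 and DDB2. They were above at PMAIP1 and RPS27L. Over all 16622 protein-coding genes with any H3K4me1, both 10 h values were above both 0 h values in 10.1% and below in 24.6%. For the apoptosis targets it was 4 of 13 above and 3 below, for the arrest targets 1 of 12 above and 5 below, for the feedback genes 2 of 9 each way, and for repair and metabolism 3 of 14 above and 1 below.

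**Figure D5:**
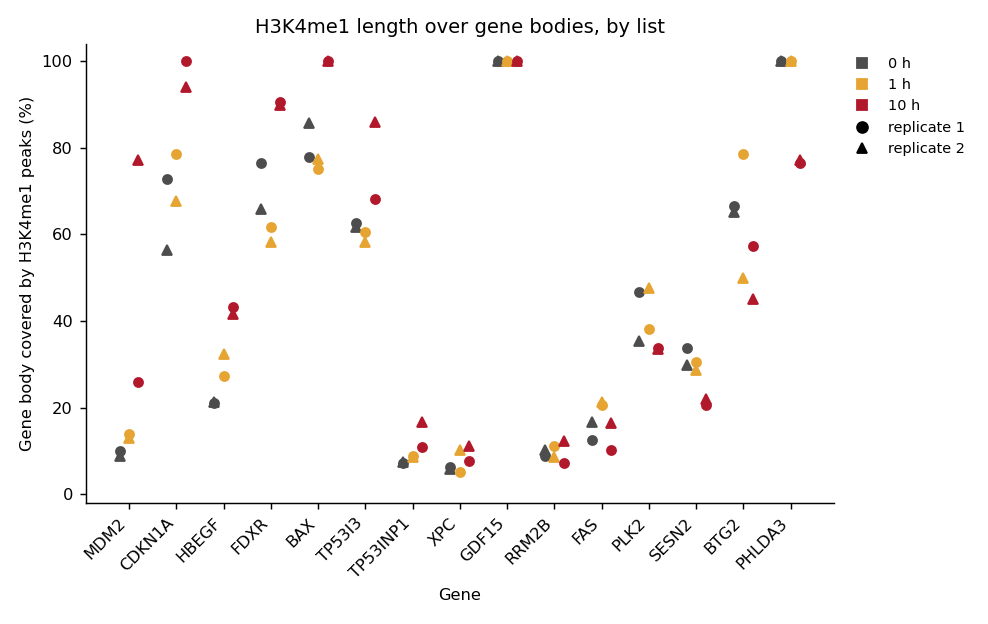
Share of each gene body covered by H3K4me1 peaks (%, y axis) in the 6 lists for 15 genes chosen after their values were seen; colours are hours of Nutlin-3a, circles and triangles are replicates 1 and 2. MDM2, CDKN1A, HBEGF, FDXR, BAX, TP53I3, TP53INP1 and XPC lie higher in both 10 h lists than in both 0 h lists. PLK2, SESN2, BTG2 and PHLDA3 lie lower.

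Counted by nearest start within 100 kb, the gene lists held few calls. Over all regions that near to a gene, 323 of 51358 tested ranked higher and 11 lower, 2558 were higher and 1933 lower at an unadjusted limma p-value under 0.05, and 2.60% of 90515 were gained and 2.18% lost. The arrest targets had 0 calls among 59 tested regions (7 higher and 2 lower at an unadjusted limma p-value under 0.05) and 2 gained domains, near NINJ1 and PTP4A1. The apoptosis targets had 0 calls among 37 (4 higher and 2 lower at an unadjusted limma p-value under 0.05), 1 gained domain near PMAIP1 and 1 lost near BBC3. The feedback genes had RRM2B called among 25 tested, a median change of 0.16, and 3 of 51 regions gained (5.88%), all near MDM2, with 1 lost near ZMAT3. Repair and metabolism had RRM2B called among 31 and gained domains near ACER2 and XPC. Among replication genes 1 of 48 regions ranked higher, near MCM5, a helicase subunit (percentiles 11 and 30.4 at 0 h, 60.3 and 82.3 at 10 h), and among mitotic genes 1 of 56, in CDC25C, the phosphatase of mitotic entry (37.1 and 16.0, then 90.1 and 81.8). At an unadjusted limma p-value under 0.05 each of these lists had 1 region higher and 3 lower. Their median changes were −0.04 and −0.07. Replication genes had 0 gained domains and 1 lost, near RRM2. Mitotic genes had 1 gained, near CCNB1, and 1 lost, near CCNB2. LAMA3 was the only call among 57 laminin and hemidesmosome regions (6 higher and 1 lower at an unadjusted limma p-value under 0.05). That list had 1 gained and 3 lost domains, all near DST.

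The Wnt, intestinal identity, immediate early, interferon and EGFR ligand lists had 0 calls among 87, 66, 83, 61 and 38 tested regions. At an unadjusted limma p-value under 0.05 they had 8, 1, 3, 1 and 0 regions higher and 5, 4, 5, 0 and 1 lower, beside the 2558 higher and 1933 lower of 51358 given above. Their medians lay between −0.05 and 0.00, beside −0.02 over all tested regions. Gained domains numbered 2, 2, 4, 3 and 1, and lost domains 1, 1, 5, 2 and 2.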

How the data were processed

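Peak lists of 6 WT H3K4me1 libraries and of the 10 H3K27ac libraries were used; input libraries were not used here. According to the study's methods, reads were mapped to GRCh37 with Bowtie2 and peaks were called with MACS2 2.2.7.1 against input, broad for H3K4me1 and narrow for H3K27ac. The fold ratio, −log10 p-value and −log10 q-value of each peak are as deposited by the authors, 1 list per library. No region ran past the end of its GRCh37 chromosome (24 compared).

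Regions, presence (1 bp overlap) and gained, lost and rank calls were defined as given with the results. Fits used limma 3.58.1 (lmFit, eBayes with trend) in R 4.3.3, with Benjamini-Hochberg adjustment over all regions tested. On simulated data, 200 H3K4me1 rank changes were planted among 60476 regions, and 45% of those of size 1 and 88% of those of size 2 were recovered, with 3.62% false calls. For H3K4me1 widths 19% and 79% were recovered in the same way, with 8.41% false calls. For H3K27ac ranks, among 18757 regions, 81% and 98% were recovered, with 10.1% false calls. Classes and nearest starts came from basic transcripts of GENCODE release 44 lifted to GRCh37, where 1 marker, PECAM1, was not matched. Wilson intervals cover counting error only.

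Named regions were the 8 gained and 8 lost domains of highest mean percentile, the 5 leading gained domains with new H3K27ac, the 8 higher and 8 lower regions of smallest p-value, and the start sites of 15 p53 targets. Some regions that meet this rule are not reported here. Other regions and genes named were chosen after their values were seen. The members and gene lists were chosen with earlier results of these data known. Alternatives are listed at the end.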

Additional observations from a re-analysis of the deposited data

How the results depend on the processing

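With 2 lists per time, peak lists without read counts and mostly weak new domains, the counts move with single libraries and thresholds. Asking for a −log10 q-value of 5 or more left 190 gained and 2 lost domains, 2.08 Mb covered only at 10 h and 3.10 Mb only at 0 h, and, when required in all lists, 41 regions ranked higher and 1 lower. Peaks covering at least 50% of the region left 1369 lost domains. Leaving out 1 list gave 3884 to 6984 gained and 3951 to 9407 lost domains, 8.11 to 15.1 Mb and 10.3 to 23.3 Mb, 7 to 169 regions ranked higher and 0 to 8 lower, where a domain has to pass in fewer lists and the fit has fewer samples. Each of the 4 lists moved these counts by over 1.5 times, except 0 h replicate 2 for gained domains. Ranking by fold left 4 higher and 0 lower. Width calls were 0 under every alternative run. Replicate numbers do not pair the lists (deviation correlation 0.00084 for rank), and with the replicate block 386 regions were higher, 15 lower, 0 wider and 0 narrower.

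Gained domains with H3K27ac in both 10 h lists were 9.17% with the stricter H3K27ac threshold, 35.8% with the stricter H3K4me1 threshold and 19.7 to 20.2% without 1 list. For H3K27ac gained there the values were 7.17%, 27.9%, 10.5% against the RAD21 line and 14.3 to 17.7%. Lost domains with H3K27ac at 0 h were 0.318%, 0% (of 2 domains), 1.31% in the RAD21 line and 1.47 to 1.75%, and with H3K27ac lost 0.0794%, 0% (of 2), 0.159% with 200 bp overlap and 0.318 to 0.913%. The median H3K27ac change at regions ranked higher was 0.69 by fold, 0.43 with the replicate block and 0.38 to 0.58 without 1 list. At regions ranked lower it was 0.05 with the block and 0.01 to 0.11 without 1 list. Added after seeing the data, the count of elements was 10 in strong gained domains and, with no spacer, 6 in regions ranked higher. Why these values moved was not tested.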

Other observations

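Several genes had more than 1 gained domain nearest to them. PXDN, a peroxidase of the basement membrane, SPECC1 and ZBTB10 had 4 each, and TLE1, a transcriptional corepressor, PELI1 and CUL3, both of ubiquitin ligation, had 3 each. Of the genes nearest to lost domains, ARID1B, a chromatin remodelling subunit, HIVEP3, NAV2 and GALNT4 had 4 each.

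Some genes outside the p53 target lists used here also changed, and whether p53 regulates them was not tested. The gene body of HBEGF, an EGFR ligand, was covered by H3K4me1 over 21.1% and 21.4% at 0 h, 27.4% and 32.4% at 1 h and 43.3% and 41.6% at 10 h. That of ATF3, a stress-response factor, was covered over 27.3% and 24.4% at 0 h and 31.8% and 34.0% at 10 h. In the other direction, AURKB, a mitotic kinase, went from 66.3% and 66.8% to 47.7% and 39.9%, and KLF4, a zinc finger factor of differentiated epithelium, from 43.5% and 52.7% to 19.4% and 31.3%. These genes were picked from the lists after their values were seen, and no test was made.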
